A study of Mus musculus with 4 samples.

Results

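The genes of the proteasome were taken as all symbols of the count matrix that start with Psma, Psmb, Psmc, Psmd, Psme or Psmg, leaving out the immunoproteasome genes Psmb8, Psmb9 and Psmb10. Of 13978 symbols, 45 met this rule. One of them, Psmc3ip, encodes a meiotic recombination factor that carries the prefix only through its name, and it is given apart. The other 44 were grouped as 8 core alpha subunits, 7 core beta subunits, 9 subunits of the base of the regulatory particle, 8 subunits of its lid, 5 genes of the alternative activators and 7 assembly chaperones.

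The study profiled single hematopoietic progenitors from the bone marrow of mice with and without transplanted B cell acute lymphoblastic leukemia (B-ALL). The hosts of both groups were wild-type CD45.1 mice. The B-ALL hosts had received 150000 primary tumor cells by tail vein, taken from a lymph node of a single leukemic CD45.2 mouse (LN768) heterozygous for Ebf1 and Pax5, and the controls had received PBS. After 3 weeks the hosts' own KIT+ Lin- CD45.2- CD45.1+ bone marrow cells were sorted and sequenced with the 10x Chromium 3′ v3 kit. The labels list 4 samples, 2 in each group, and the deposited cells carry the group but no sample number. Each group was therefore 1 sum of unique molecular identifiers (UMIs), no p-value could be computed, and every interval below is a 95% interval that covers counting error only. Differences between mice are not in these intervals.

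The proteasome is the protease that breaks down proteins tagged with ubiquitin. Its barrel-shaped core is built of outer rings of alpha subunits, which gate the entrance, and inner rings of beta subunits, of which Psmb5, Psmb6 and Psmb7 encode the cutting ones. The regulatory particle caps the core: its base holds the ATPases that unfold a substrate and its lid holds the enzyme that removes ubiquitin. In blood-forming tissue, stem cells are known for low protein synthesis and for depending on intact protein quality control, so proteasome capacity is often discussed with stem cell maintenance.

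Each group held 5882 cells. The control sum was 68391214 UMIs, with a median of 10189 UMIs per cell, and the B-ALL sum was 76059014, with a median of 10458. At least 1 UMI of Kit, the receptor used in the sort, was present in 92.9% of control cells and 79.1% of B-ALL cells. Mitochondrially encoded genes held 3.56% of UMIs in controls and 5.14% in the B-ALL environment. The 4 B cell markers used held 0.00427% and 0.0353% of UMIs, and the 4 globin genes 0.00568% and 0.0728%. Erythroid markers held 0.155% of UMIs among controls and 0.0342% among B-ALL cells, and 848 control and 203 B-ALL cells were later classed as erythroid-like, a class of high proteasome share. The groups shared 18 cell barcodes. The part of these differences in the results below was not tested, except where a value without the cells or genes concerned is given.

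Over all cells, proteasome genes held a smaller share of the UMIs in the B-ALL environment. The 44 genes together took 1.03% of UMIs in controls and 0.946% in the B-ALL environment, for a log2 ratio of -0.12 (interval -0.13 to -0.12). The share per cell had a median of 0.984% in the control, with quartiles of 0.830% and 1.13%, and of 0.896% in the B-ALL environment, with quartiles of 0.758% and 1.05%. The distributions over cells therefore overlapped widely. The log2 ratio was -0.10 without mitochondrially encoded genes, -0.12 without the 18 cells rich in globin or immunoglobulin kappa UMIs, and -0.07 when every progenitor class was given the same number of cells in both groups.

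Gene by gene, levels are UMIs per 1000000 UMIs (CPM) after trimmed-mean scaling, which sets the typical gene to equal levels in both groups. Because the 3′ kit counts each molecule once at its end, levels of different genes were set side by side without dividing by transcript length, although capture can differ between genes. The median log2 fold of the 44 genes was -0.11, against 0.00 for all 13978 genes. Of the 44, 33 were lower and 11 higher in the B-ALL environment, where 49.7% of all genes were lower. With no scaling beyond the UMI total, 30 were lower and 14 higher, and the median was -0.07. A difference was called at a log2 fold of at least 0.32 in either direction. On that rule 8 genes were lower (Psma5, Psmb4, Psmc2, Psmc4, Psmd5, Psmd10, Psmg1 and Psmg2), which is 8 of 44 beside 15.8% of all genes, and 0 were higher, beside 20.1% of all genes. The share called lower was thus close to the background, and most differences of the members were small and of one sign. The background was not matched to the members' levels, and it held genes with few UMIs, whose folds have a larger counting error. When every class was given equal cell numbers, 2 rather than 8 genes were called lower.

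**Figure D1:**
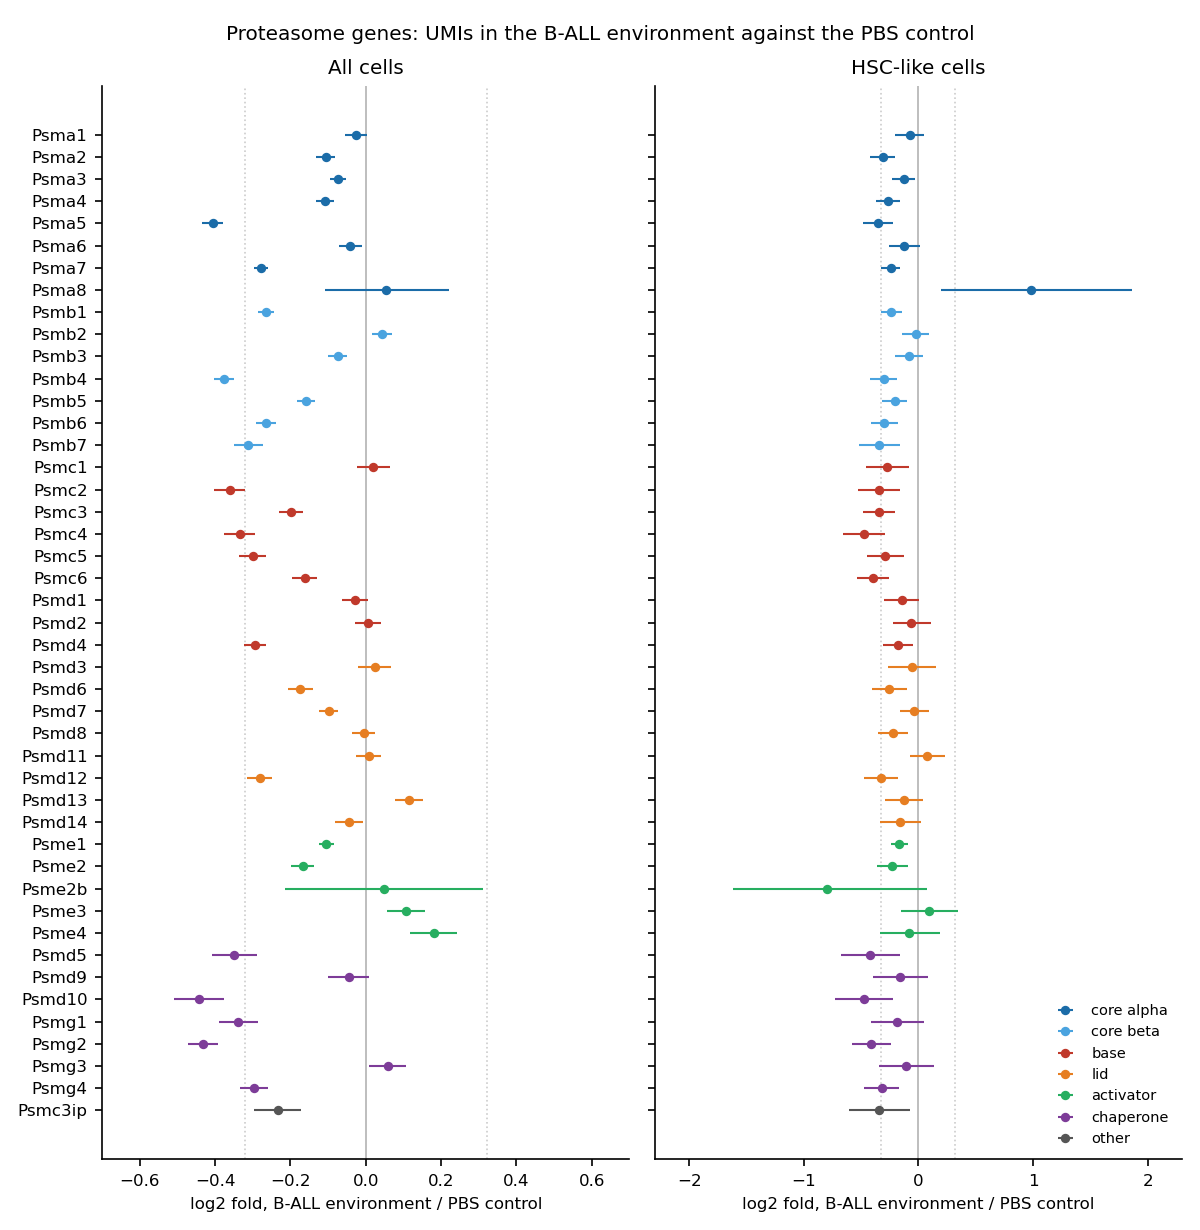
Log2 fold of each proteasome gene in the B-ALL environment against the PBS control (x axis), for all cells together and for HSC-like cells; points are coloured by part of the complex, bars are 95% counting intervals and dotted lines mark the called log2 fold of 0.32. Over all cells the points run from -0.44 for Psmd10 to 0.18 for Psme4, and most lie left of 0.

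Among the core alpha subunits 7 of 8 were lower, with a median log2 fold of -0.09. Psma7, the most abundant member of all, stood at 796 CPM in controls and 657 CPM in the B-ALL environment (log2 fold -0.28, interval -0.30 to -0.26). Psma5 (chr3:108256926-108279974, plus strand, GRCm38) stood at 312 and 235 CPM. Its log2 fold of -0.41 was the lowest among alpha subunits, and its interval of -0.44 to -0.38 did not reach 0. Psma3, the third most abundant member, was closer between the groups, at 493 and 469 CPM (log2 fold -0.07). When classes were given equal cell numbers its log2 fold was 0.04. Psma8, the alpha subunit known from the spermatocyte proteasome, was near the bottom of the range at 8.29 and 8.61 CPM, and its interval of -0.11 to 0.22 spanned 0.

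The core beta subunits had a median log2 fold of -0.26, with 6 of 7 lower. Psmb5 (chr14:54614119-54618022, minus strand), which carries the chymotrypsin-like activity that proteasome inhibitor drugs block, stood at 402 CPM in controls and 360 CPM in the B-ALL environment (log2 fold -0.16, interval -0.18 to -0.13). Psmb6 (chr11:70525367-70527858, plus strand), the caspase-like subunit, stood at 333 and 277 CPM (log2 fold -0.26, interval -0.29 to -0.24). Psmb7 (chr2:38588036-38644087, minus strand), the trypsin-like subunit, stood at 167 and 135 CPM (log2 fold -0.31, interval -0.35 to -0.27). All 3 cutting subunits had lower levels in the B-ALL environment, with intervals apart from 0, and none reached the called fold. Psmb4, a structural beta subunit (chr3:94884093-94886961, minus strand), had the lowest beta value, at 341 and 263 CPM (log2 fold -0.38). Psmb2 was the exception, at 322 and 331 CPM (log2 fold 0.04).

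The base and the lid of the regulatory particle differed in their medians. The 9 base genes had a median log2 fold of -0.20 and 7 were lower, whereas the 8 lid genes had a median of -0.03 and 5 were lower. In the base, the ATPase genes Psmc2 and Psmc4 were called. Psmc2 stood at 147 and 115 CPM (log2 fold -0.36), and Psmc4 at 149 and 118 CPM (log2 fold -0.34). In the lid no gene was called over all cells. Psmd13, a scaffold subunit, stood at 167 and 181 CPM (log2 fold 0.11, interval 0.08 to 0.15), and Psmd11, another scaffold subunit, at 201 and 202 CPM. Psmd7, the partner of the deubiquitinase subunit, stood at 328 and 307 CPM (log2 fold -0.10), and 0.04 on the log2 scale when classes were given equal cell numbers. As a share of all UMIs the base was 0.172% among controls against 0.155% (log2 ratio -0.15, interval -0.16 to -0.14), and the lid 0.163% against 0.159% (log2 ratio -0.03, interval -0.04 to -0.02).

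The alternative activators dock on the core in place of the regulatory particle. Psme1 and Psme2 encode the subunits of the interferon-inducible activator linked to antigen processing, and Psme3 and Psme4 encode nuclear activators that work without ubiquitin. Psme1, the second most abundant member, stood at 554 CPM in controls and 516 CPM in the B-ALL environment (log2 fold -0.10), and Psme2 at 262 and 234 CPM (log2 fold -0.17). Psme4 (chr11:30771726-30880361, plus strand) had the highest log2 fold of all members with at least 10 CPM, 0.18 (interval 0.12 to 0.24), from 54.6 and 61.9 CPM. Psme3 stood at 84.4 and 90.9 CPM (log2 fold 0.11, interval 0.06 to 0.16). The nuclear activators were thus higher and the interferon-inducible pair lower in the B-ALL environment, with differences under the called fold. The sizes depended on the cells used: thinned to 5000 UMIs per cell, the log2 folds were 0.0032 for Psme3, 0.08 for Psme4 and -0.05 for Psme1, and with every class at equal cell numbers 0.28, 0.26 and -0.17. Psme2b, a near copy of Psme2 whose reads cannot be assigned with certainty, had 3.33 and 3.44 CPM.

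The assembly chaperones had the lowest median of the 6 parts, -0.34. Of the 7 genes 6 were lower and 4 of them called, beside 15.8% of all genes called lower. Psmd10 (chrX:140948429-140956728, minus strand), which encodes gankyrin, a base chaperone also known as an oncoprotein, stood at 59.9 CPM in controls and 44.1 CPM in the B-ALL environment. Its log2 fold of -0.44 (interval -0.51 to -0.38) was the lowest of all members. Psmg2, which helps to form the alpha ring, stood at 156 and 116 CPM (log2 fold -0.43, interval -0.47 to -0.39). Psmd5, a further base chaperone, stood at 70.7 and 55.5 CPM (log2 fold -0.35). Psmg3, a core chaperone, was the only chaperone higher in the B-ALL environment, at 91.0 and 94.7 CPM (log2 fold 0.06). Together the chaperones took 0.0719% of UMIs in controls and 0.0612% in the B-ALL environment (log2 ratio -0.23, interval -0.25 to -0.21). Psmc3ip, no proteasome gene, stood at 64.7 and 55.0 CPM (log2 fold -0.23).

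Giving each class equal cell numbers moved many of these values. Under it Psmd10 (log2 fold -0.41) and Psmg2 (-0.34) kept the called fold, whereas Psma5 (-0.30), Psmb4 (-0.28), Psmc4 (-0.24), Psmc2 (-0.22) and Psmd5 (-0.22) no longer reached it. Among the cutting subunits, Psmb5 was at -0.08, Psmb6 at -0.19 and Psmb7 at -0.19. Psmd13 (log2 fold 0.20), Psmg3 (0.19), Psmb2 (0.14) and Psmd11 (0.11), already higher before, stood higher still. By contrast Psme2b stayed at 0.05, and Psma8 stood at -0.08.

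Proteasome genes are known to be induced together by the transcription factors NRF1 and NRF2, which bind the antioxidant response element, and many also carry a CCAAT box, the motif of NF-Y. RefSeq promoters of GRCm38.p6, from 250 bases before to 50 bases after the start, were matched by symbol for 37 of the 45 members. The windows below show where the element was found in 5 members and a CCAAT box in the member with the lowest fold, 5′ to 3′ on the gene's strand with the motif in capitals.
Psmb5 (chr14:54618009-54618067, minus strand): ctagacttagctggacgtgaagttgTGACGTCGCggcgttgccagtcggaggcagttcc
Psmb6 (chr11:70525323-70525356, plus strand): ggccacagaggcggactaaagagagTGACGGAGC
Psmc6 (chr14:45329574-45329630, plus strand): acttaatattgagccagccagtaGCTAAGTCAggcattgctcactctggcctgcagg
Psmd12 (chr11:107479278-107479314, plus strand): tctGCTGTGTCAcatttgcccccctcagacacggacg
Psmd9 (chr5:123228134-123228189, plus strand): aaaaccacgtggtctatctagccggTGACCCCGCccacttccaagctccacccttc
Psmd10 (chrX:140956912-140956961, minus strand): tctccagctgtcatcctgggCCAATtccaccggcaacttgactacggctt

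The element was searched as TGACNNNGC and the box as CCAAT, both on either strand, so that GCTAAGTCA and GCTGTGTCA above are the element read from the opposite strand. Matches were counted per gene, in any of its promoters, and the 37 members include Psmc3ip. The element was present in 6 of 37 members (Psmb5, Psmb6, Psmc6, Psmd9, Psmd12 and Psme4), which is 16.2%. It was present in 14.0% of all 27025 genes with a promoter and 16.9% of the 10472 such genes in the matrix. The CCAAT box was present in 13 of 37, Psmc3ip among them, or 35.1%, beside 41.1% and 42.9%. Neither motif was more frequent in the members than in genes of the matrix at large. The 6 members with the element had a median log2 fold of -0.16 over all cells and ranged from -0.28 for Psmd12 to 0.18 for Psme4. The 31 without it had a median of -0.11. Members with and without the CCAAT box had medians of -0.07 and -0.16. The transcription factor gene Nfe2l1, which encodes NRF1, stood at 94.8 CPM in controls and 77.3 CPM in the B-ALL environment (log2 fold -0.29, interval -0.35 to -0.24).

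Cells were placed in 9 progenitor classes, each a set of clusters on the deposited cell map named by marker genes. In each class at least 3 markers of its list were detected. Classes carry "-like" because they were rebuilt from markers, and another assignment, by marker UMIs of each cell, put 34.5% of cells near a class boundary. In HSC-like cells, 330 in controls and 1125 in the B-ALL environment, all 11 stem cell markers of the list were in the matrix and held 0.118% and 0.172% of UMIs. Over all cells these markers held 0.0268% and 0.0597%.

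In HSC-like cells the difference was larger than over all cells. The summed proteasome share was 0.917% in controls and 0.812% in the B-ALL environment (log2 ratio -0.18, interval -0.20 to -0.16). Per cell, the median share was 0.907% in controls and 0.798% in the B-ALL environment. Of the 44 genes 41 were lower and 3 higher, where 49.1% of 12262 genes were lower, and the median log2 fold was -0.22. At the called fold 11 genes were lower, beside 17.9% of all genes tested in this class, and 1 was higher, beside 23.7%. With cells assigned by their own marker UMIs, the median was -0.10 and 3 genes were called lower.

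HSC-like cells of the 2 groups also differed in other genes. The 15 G2/M genes fixed as a list held 0.236% of UMIs in controls and 0.179% in the B-ALL environment, and all 15 were lower. The 14 S phase genes held 0.247% and 0.203%, and all 14 were lower. Mitochondrially encoded genes held 3.85% and 6.52%, globins 0.00583% and 0.106%, and neutrophil progenitor markers 0.176% and 0.0897%. Basophil and mast markers held 0.0128% and 0.000667%, and the 3 T and NK cell markers 0.0247% and 0.00834%. The part of cell cycle genes, mitochondrial RNA and other cell types in the proteasome difference was not tested. The class was made of 3 clusters, and the proteasome log2 ratio was -0.11 in cluster 2 (121 control and 423 B-ALL cells) and -0.20 in cluster 4 (172 and 497 cells). In cluster 3, which had the highest stem cell marker share, it was -0.07 with an interval of -0.15 to 0.01, over 37 control and 205 B-ALL cells. The difference was therefore smaller in cluster 2 and cluster 3 than in the class as a whole, and in cluster 3 it was not detectable at this depth.

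By part, the HSC-like medians were -0.18 for core alpha, -0.23 for core beta, -0.29 for base, -0.14 for lid, -0.16 for activators and -0.32 for chaperones. Among the cutting subunits Psmb5 stood at 351 CPM in controls and 304 CPM in the B-ALL environment (log2 fold -0.21, interval -0.32 to -0.10). Psmb6 stood at 316 and 258 CPM (log2 fold -0.30), and Psmb7 at 134 and 106 CPM (log2 fold -0.34, called). Again all 3 were lower in the B-ALL environment. The lowest values among the members were those of Psmc4, at 129 and 92.9 CPM (log2 fold -0.48, interval -0.66 to -0.29), Psmd10, at 67.3 and 48.4 CPM (log2 fold -0.48, interval -0.73 to -0.22), and Psmd5, at 66.2 and 49.3 CPM (log2 fold -0.42, interval -0.68 to -0.16). At the other end Psme3 stood at 66.2 and 70.6 CPM (interval of the log2 fold -0.15 to 0.34), Psmd11 at 165 and 174 CPM (interval -0.08 to 0.23) and Psmb2 at 287 and 282 CPM (interval -0.14 to 0.10). These 3 did not differ beyond counting error. Psma8 was the 1 gene called higher, at 5.74 and 11.3 CPM, but from 15 and 108 UMIs (log2 fold 0.98, interval 0.19 to 1.87). The called set also held Psme2b on the lower side, from 19 and 40 UMIs with an interval of -1.62 to 0.08.

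The sign of the summed difference was not the same in every class. The proteasome share was lower in the B-ALL environment in 7 of 9 classes and higher in megakaryocyte-like cells, at 0.913% and 0.958% (log2 ratio 0.07), and in erythroid-megakaryocyte-like cells, at 0.839% and 0.864% (log2 ratio 0.04). In these 2 classes the groups differed in depth, with medians of 5735 and 8814.5 UMIs per cell in erythroid-megakaryocyte-like cells and 8330.5 and 14797 in megakaryocyte-like cells. The part of depth in these differences was not tested. The groups also lay in different clusters of these classes. Of erythroid-megakaryocyte-like cells, most control cells (591) were in cluster 5, where the log2 ratio was -0.03, and most B-ALL cells (439) in cluster 11, where it was 0.05. Of megakaryocyte-like cells, most control cells (193) were in cluster 17 and most B-ALL cells (397) in cluster 7. The log2 ratio was 0.11 in cluster 17 and 0.03 in cluster 7. Clusters also differed in classes where the share was lower. In monocyte progenitor-like cells the log2 ratio was -0.05 in cluster 1 and 0.0031 in cluster 14 (interval -0.01 to 0.02). In erythroid-like cells it was -0.13 in cluster 15 and -0.01 in cluster 16 (interval -0.03 to 0.01).

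Counts of called members are given here beside the share of all genes called in the same class. These shares again include genes with few UMIs and were not matched to the members' levels. In basophil and mast-like cells 17 of 43 tested members were lower (19.0% of all genes) and 2 higher (20.5%). In multipotent progenitor-like cells 14 of 44 were lower (16.9% of all genes) and 1 higher (20.5%). In lymphoid-primed-like cells 9 were lower (15.6% of all genes) and 0 higher (18.9%). The median log2 folds of the members in these 3 classes were -0.18, -0.19 and -0.18, and the share of members called lower stood above the background in all 3, by the least in lymphoid-primed-like cells.

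In the remaining classes the counts were smaller, and the share of members called was below that of all genes in both directions. Since the share of all genes was not matched for level, this does not show that the members were steadier than other genes. In erythroid-like cells 7 members were lower (19.0% of all genes) and 0 higher (20.1%), with a median of -0.05. In neutrophil progenitor-like cells 5 were lower (17.1%) and 2 higher (15.6%), with a median of -0.04. In monocyte progenitor-like cells 2 were lower (16.5%) and 0 higher (13.5%), with a median of -0.0048. The members went both ways there, with 16 intervals below and 19 above 0, while their summed share was lower in the B-ALL environment. In erythroid-megakaryocyte-like cells 1 member was lower (22.9%) and 6 were higher (22.0%), with a median of 0.10, and in megakaryocyte-like cells 3 were lower (22.0%) and 6 higher (20.7%), with a median of 0.12. The medians of erythroid-like and monocyte progenitor-like cells were positive when cells were assigned by their own marker UMIs. Thinned to 5000 UMIs per cell, the medians were -0.09 in erythroid-like, 0.04 in monocyte progenitor-like and -0.01 in neutrophil progenitor-like cells. They were 0.10 in erythroid-megakaryocyte-like and 0.06 in megakaryocyte-like cells.

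Single members differed in how steady their sign was over the classes. Of the 43 members tested in all 9 classes, 11 were lower in every class, beside 8.05% of the 9673 genes tested in all 9. They were Psma5, Psmb1, Psmb4, Psmb6, Psmb7, Psmc2, Psmc4, Psmd4, Psmd10, Psmg2 and Psmg4. The interval was below 0 in all 9 classes for Psma5, Psmb1, Psmb4, Psmd4, Psmg2 and Psmg4. It was below 0 in 8 classes for Psmb6 and Psmd10, in 7 for Psmc2, in 6 for Psmc4 and in 5 for Psmb7. Psma5 ranged from -0.54 in multipotent progenitor-like cells to -0.13 in erythroid-megakaryocyte-like cells, and its interval was below 0 in all 9 classes. Psmd10 ranged from -0.65 in erythroid-like cells to -0.16 in lymphoid-primed-like cells. Psmg2 ranged from -0.53 in basophil and mast-like cells to -0.17 in megakaryocyte-like cells, again with its interval below 0 in all 9. Psmd11 was the 1 member higher in every class, beside 7.25% of all genes, from 0.04 in neutrophil progenitor-like cells to 0.34 in megakaryocyte-like cells, and its interval was above 0 in 3 of them. The lid scaffold gene Psmd13 and the base chaperone gene Psmd9 were higher in 8 of 9 classes. HSC-like cells were the exception for both (log2 fold -0.13 and -0.16), with intervals that spanned 0 (-0.29 to 0.04 and -0.39 to 0.08). The interval was above 0 in 5 classes for Psmd13 and in 2 for Psmd9, and Psmd9 was lower over all cells (log2 fold -0.05). The share of all genes higher in 8 of 9 classes was not computed. The classes share a single pair of groups, so agreement over classes is no replication.

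Set side by side by part, lid and chaperones lay at opposite ends of most classes. The chaperone share was lower in the B-ALL environment in all 9 classes, with log2 ratios from -0.37 in basophil and mast-like cells to -0.13 in megakaryocyte-like cells. The lid share was higher in 4 classes, with log2 ratios of 0.25 in megakaryocyte-like, 0.15 in erythroid-megakaryocyte-like, 0.09 in monocyte progenitor-like and 0.08 in neutrophil progenitor-like cells. The base, which assembles with the lid into the same particle, had log2 ratios of 0.06, -0.00, -0.03 and -0.04 in those 4 classes. The lid value was above the base value in 8 of the 9 classes, and erythroid-like cells, at -0.05 for the lid and -0.02 for the base, were the exception.

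**Figure D2:**
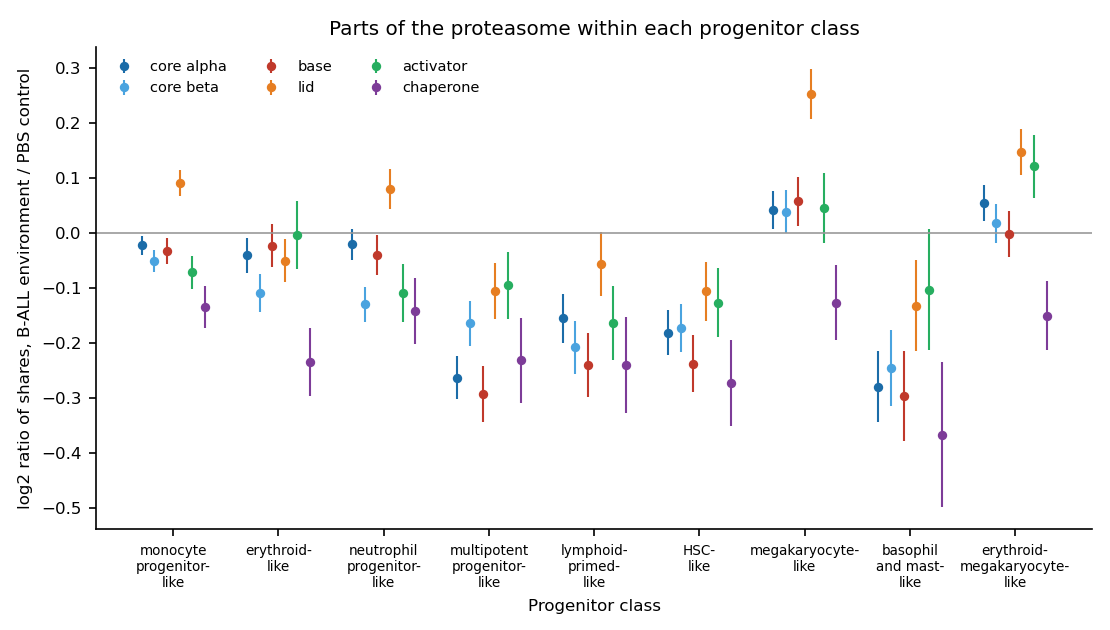
Log2 ratio of the summed UMI share of each part of the proteasome, B-ALL environment over PBS control (y axis), in 9 progenitor classes (x axis); bars are 95% counting intervals. Chaperones lie below 0 in every class shown, and the lid lies highest in megakaryocyte-like cells at 0.25.

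Across classes within a group, the proteasome share was highest in monocyte progenitor-like, neutrophil progenitor-like and erythroid-like cells. In the control it was 1.14% in monocyte progenitor-like, 1.09% in both erythroid-like and neutrophil progenitor-like and 1.01% in multipotent progenitor-like cells. Lymphoid-primed-like (0.923%), HSC-like (0.917%), megakaryocyte-like (0.913%) and basophil and mast-like cells (0.911%) followed, with intervals that overlap, and erythroid-megakaryocyte-like cells were lowest at 0.839%. The highest class held 1.36 times the share of the lowest. The B-ALL environment again had its highest value in monocyte progenitor-like cells, at 1.12%, ahead of neutrophil progenitor-like (1.06%) and erythroid-like cells (1.04%). Lymphoid-primed-like (0.820%) and HSC-like cells (0.812%) were neighbours with overlapping intervals, and basophil and mast-like cells were lowest at 0.772%, a ratio of 1.45 between the ends. The ends depended on the method: with cells assigned by their own marker UMIs, HSC-like cells were lowest in both groups and neutrophil progenitor-like cells highest in the control, and with TMM over classes HSC-like cells were lowest in the B-ALL environment. Of the monocyte progenitor-like clusters, cluster 1 held 1.19% (controls) and 1.15% (B-ALL), and cluster 14 1.07% in each group. Cluster 14 thus lay below neutrophil progenitor-like cells (1.09%) among controls, but above them (1.06%) among B-ALL cells. Erythroid-like cluster 16 held 1.18% and 1.17%, and cluster 15 0.998% and 0.915%. Elane was a leading gene of cluster 1 and of cluster 18, the neutrophil progenitor-like cluster. Spearman's rho between the class shares of the 2 groups was 0.75 over 9 classes. Deeper classes had higher shares, with a rho between share and median UMIs per cell of 0.93 in controls and 0.77 in the B-ALL environment, over 9 classes that share library preparation.

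**Figure D3:**
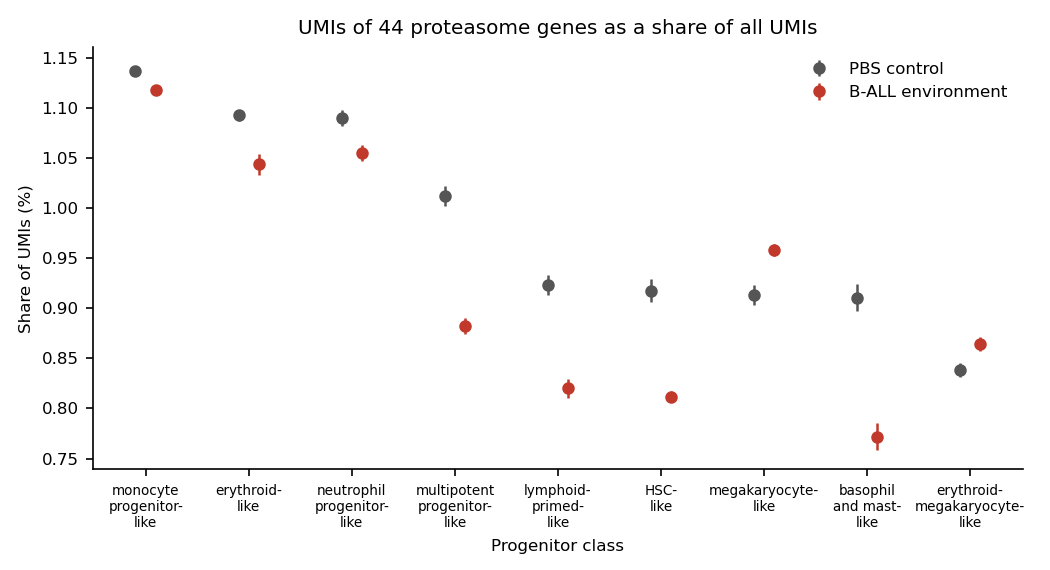
UMIs of the 44 proteasome genes as a percent of all UMIs (y axis) in each progenitor class (x axis) of the PBS control and the B-ALL environment, with 95% counting intervals. The 2 groups lie furthest apart in basophil and mast-like and multipotent progenitor-like cells, and the B-ALL value is the higher one in megakaryocyte-like and erythroid-megakaryocyte-like cells.

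Individual members followed this order only in part, at levels given here as plain CPM without that scaling. In the control 20 of 44 members were highest in erythroid-like cells, 9 in monocyte progenitor-like and 8 in neutrophil progenitor-like cells, and 21 were lowest in erythroid-megakaryocyte-like cells. In the B-ALL environment 17 were highest in monocyte progenitor-like and 15 in erythroid-like cells, and 23 were lowest in basophil and mast-like cells. The class with the highest level was the same in both groups for 25 of 44 members, and the class with the lowest level for 12. The median log2 range over classes in the control was 0.54 for core alpha, 0.51 for core beta, 0.54 for base and 0.61 for lid genes.

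Within each part, the member with the widest range in the control shows which classes set it. Psmb2 ranged from 211 CPM in erythroid-megakaryocyte-like to 382 CPM in neutrophil progenitor-like cells. Psmc2 ranged from 110 CPM in lymphoid-primed-like to 194 CPM in erythroid-like cells, and Psmd7 from 262 CPM in HSC-like to 447 CPM in erythroid-like cells. Among chaperones Psmd5 ranged from 57.8 CPM in multipotent progenitor-like to 104 CPM in erythroid-like cells. Erythroid-like cells thus held the highest level of 3 of these 4 genes. Psma8 ranged from 4.26 CPM in basophil and mast-like cells, where it had 8 UMIs, to 11.8 CPM in megakaryocyte-like cells. Psma7 followed the monocyte progenitor-like cells, with 1049 CPM there and 565 CPM in erythroid-megakaryocyte-like cells.

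The activators had the widest median log2 range of the 6 parts, 0.96, and chaperones followed with 0.71. Psme1 was highest in lymphoid-primed-like cells, at 714 CPM, and lowest in erythroid-like cells, at 366 CPM. Psme3 had its extremes in the classes that were the most common ones for the members, with 118 CPM in erythroid-like and 65.5 CPM in erythroid-megakaryocyte-like cells. Psme1 was lowest in erythroid-like cells in the B-ALL environment too, at 355 CPM, the class in which 15 of 44 members were highest. Psme2b had the widest range of any activator, from 7.19 CPM in HSC-like cells to 1.07 CPM in basophil and mast-like cells, but the latter rested on 2 UMIs.

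**Figure D4:**
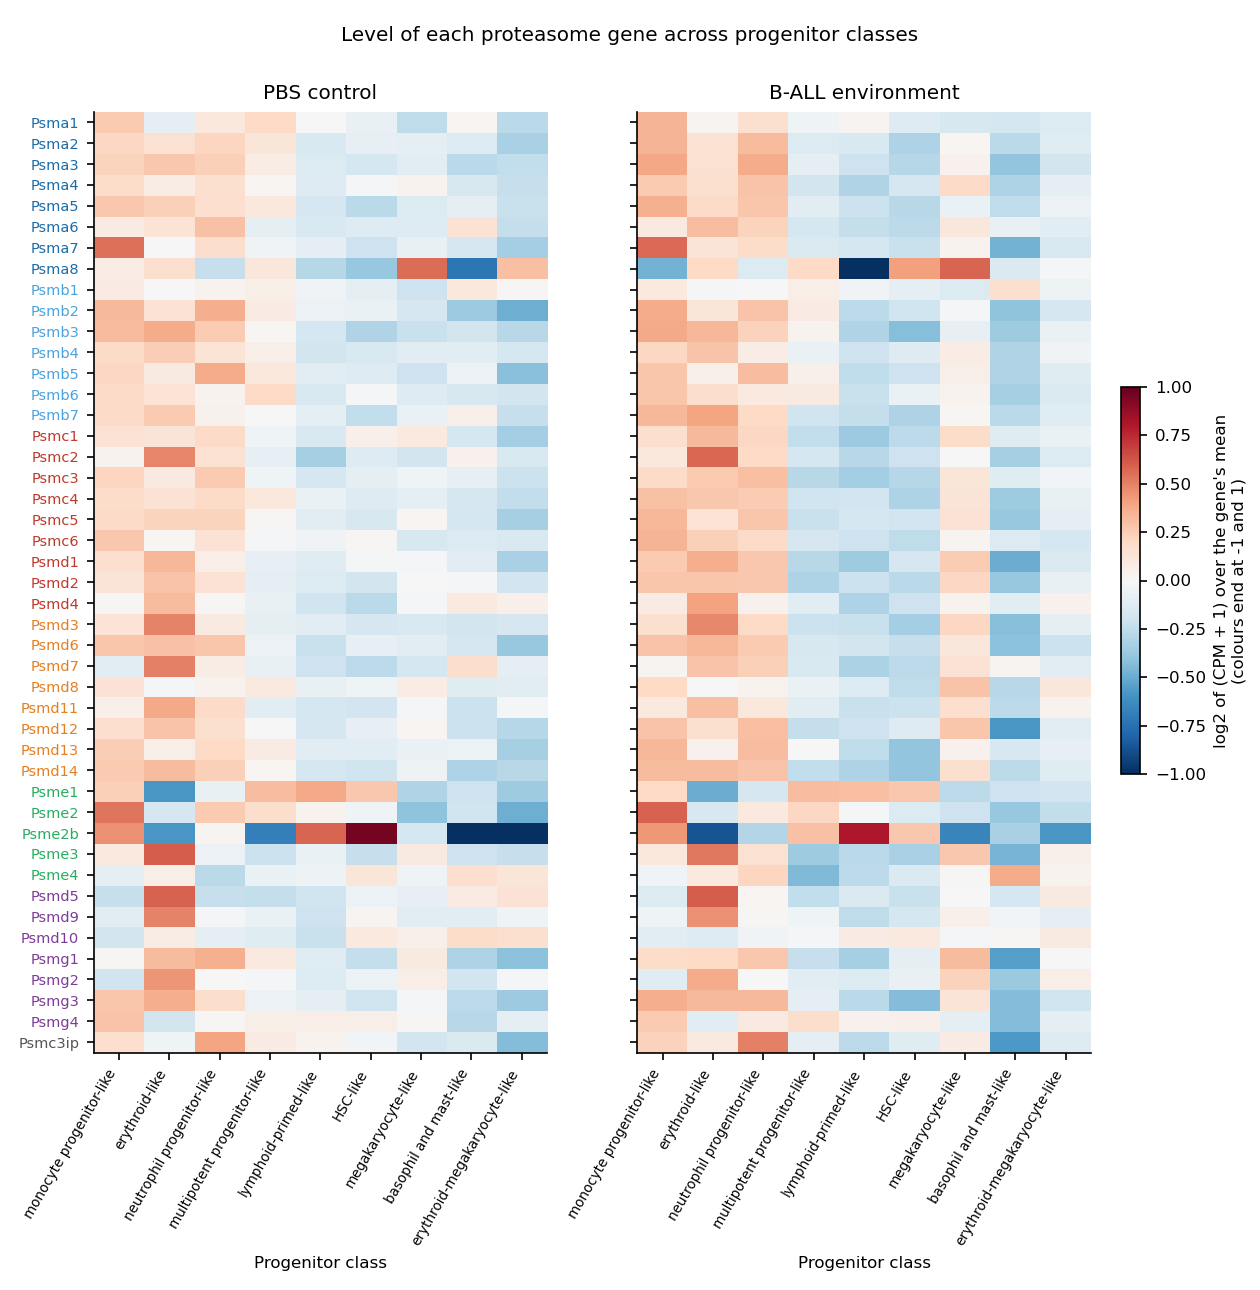
Level of each proteasome gene in each progenitor class as log2 of (CPM + 1) over the gene's mean over classes, in the PBS control and the B-ALL environment; red is above and blue below the gene's mean. Psme1 is blue in erythroid-like cells, 366 CPM in the control, where most other genes are red.

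The immunoproteasome genes, left out by the rule, encode alternatives to the 3 cutting subunits and are induced by interferon. Their share of UMIs was 0.118% in controls and 0.0932% in the B-ALL environment (log2 ratio -0.34), and in HSC-like cells 0.125% and 0.0814% (log2 ratio -0.62). Psmb8, the counterpart of Psmb5, stood at 787 and 565 CPM over all cells (log2 fold -0.48), and Psmb9 and Psmb10 had log2 folds of -0.23 and -0.18. For each UMI of Psmb5 there were 1.96 UMIs of Psmb8 in controls and 1.57 in the B-ALL environment. In HSC-like cells this ratio was 2.19 and 1.498, and in megakaryocyte-like cells 1.51 and 0.933. In erythroid-like cells it was 0.816 and 0.830, with overlapping intervals. Over all cells Psmb9 per Psmb6 was 0.710 and 0.727, with overlapping intervals, and Psmb10 per Psmb7 was 1.04 and 1.15. In HSC-like cells both were lower in the B-ALL environment, at 0.941 and 0.776 for Psmb9 per Psmb6 and at 1.496 and 1.415 for Psmb10 per Psmb7, the latter with overlapping intervals. In megakaryocyte-like cells Psmb9 per Psmb6 was 0.684 and 0.539.

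**Figure D5:**
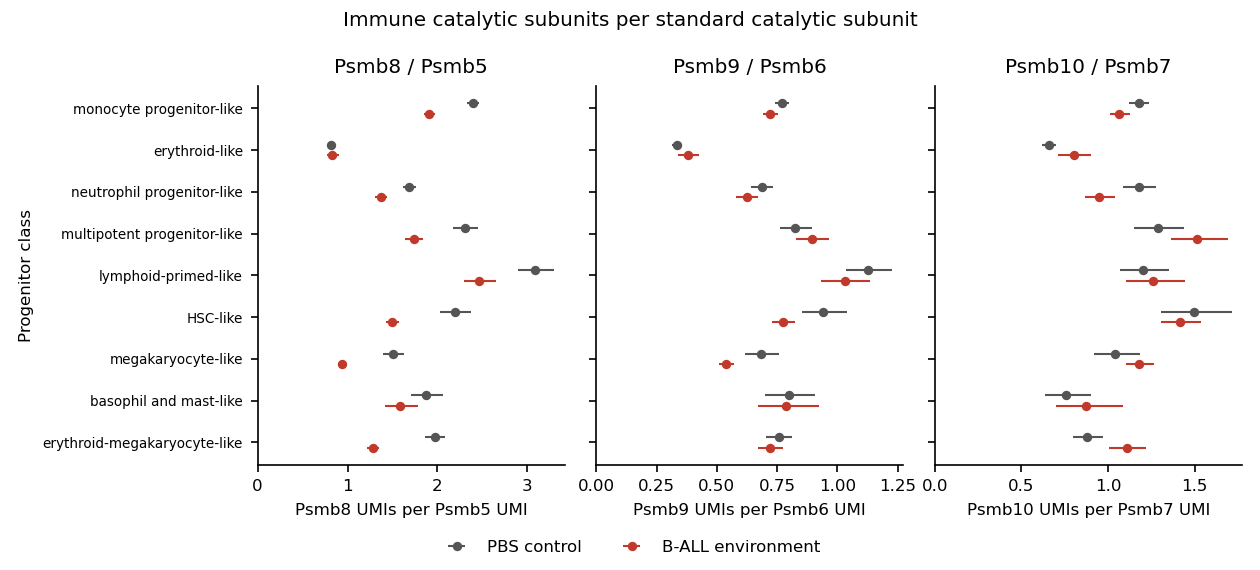
UMIs of each immunoproteasome subunit per UMI of its standard counterpart (x axis) in each progenitor class (y axis) of both groups, with 95% counting intervals. Psmb8 per Psmb5 is lower in the B-ALL environment in every class shown except erythroid-like cells (0.816 and 0.830).

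Other genes of the pathway did not share one direction. Of 9 tested partners of the proteasome without a matching symbol, 3 were lower and 6 higher over all cells, with a median log2 fold of 0.02 and 0 called. Txnl1, a thioredoxin-like protein bound to the regulatory particle, had a log2 fold of -0.31. Pomp, the maturation factor of the core, stood at 460 CPM in controls and 383 CPM in the B-ALL environment (log2 fold -0.26). The deubiquitinase gene Uchl5 and the proteasome adaptor gene Ecpas had log2 folds of 0.12 and 0.09.

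Of 14 tested genes that supply or shuttle ubiquitin, 7 were lower and 7 higher, with a median log2 fold of -0.01. Ufd1, a cofactor of the segregase VCP, had a log2 fold of -0.32. The shuttle gene Ubqln2 and the VCP cofactor gene Nsfl1c had log2 folds of 0.19 and 0.11. Of 10 genes that act in the transcription of the proteasome, 7 were lower and 3 higher, with a median of -0.16. They ranged from Nfe2l1 (log2 fold -0.29) and the NF-Y subunit gene Nfyb (-0.25) to Nfyc (0.17) and Ddi2 (0.28), which encodes the protease that activates NRF1. None of these 10 was called over all cells.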

How the data were processed

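The authors deposited 1 matrix of raw UMI counts per gene and cell, with the group of each cell and a cell map. Per the submitters' processing notes, Cell Ranger 4, Seurat 4.0.1 and mm10 were used. The file prefix tm was taken as the B-ALL environment. Symbols starting Rps or Rpl are not among those of the matrix. UMIs were summed per group and class, put on the TMM scale of edgeR 4.0.16 (R 4.3.3) and compared as log2 folds with exact conditional intervals. The edgeR quasi-likelihood test planned for the case of separable samples could not be run, so no test was used. DESeq2 1.42.0 gave alternative size factors. Cells were clustered with Leiden on the deposited map (scanpy 1.11.5, 30 neighbours, resolution 0.3) and named by marker lists. The globin list was left out of naming after the data were seen. Of the clusters, 5 stayed unnamed, among them cluster 9, of low depth. No doublet caller was run. Thinning to 5000 UMIs left out 682 control and 769 B-ALL cells. The computation of folds and intervals was tested on simulated counts that held counting error only. Scaling, filtering, clustering, class naming and differences between mice were not part of that simulation.

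Members, lists and rules were chosen with earlier results of these data known. Named members were the 3 cutting subunits, the 4 members at either end of the fold order over all cells and the 3 at either end in HSC-like cells, at 10 CPM or more, the 3 most and 3 least abundant, and the widest range per part. Of each other list, at most 2 genes at each end were named (1 such gene is not reported here), with Nfe2l1, Pomp and the immunoproteasome genes. The genes called by fold, those with 1 sign in every class, the members with a motif and Psme2 were named beyond that rule after their values were seen. Positions are from GENCODE of GRCm38.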

Additional observations from a re-analysis of the deposited data

Results flagged for a closer look

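In 2 progenitor classes the summed proteasome share stood in the opposite direction to the other 7. The log2 ratio of the B-ALL environment to the control was 0.043 in erythroid-megakaryocyte-like cells and 0.069 in megakaryocyte-like cells, and below 0 in each of the other 7 classes. Within the monocyte progenitor-like and erythroid-like classes, clusters 14 and 16 had intervals that spanned 0. The difference between classes was not tested, since each group was 1 sum.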

How the results depend on the processing

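No paired analysis was possible because the deposited cells carry no sample number. For the same reason no sample could be left out in turn. The members' median log2 fold over all cells (-0.11) was -0.072 as plain CPM. The log2 ratio of the summed share (-0.12) was -0.16 after TMM, -0.097 without mitochondrially encoded genes and -0.071 with equal cell numbers of every class. The ratio of the highest to the lowest class was 1.29 with classes by marker UMIs and 1.54 with TMM over classes in the control (1.36), and 1.35 and 1.69 in the B-ALL environment (1.45), with HSC-like cells lowest in 3 of these 4 cases. Of members lower past the fold over all cells (8), there were 5 as plain CPM, 2 with equal cell numbers, 21 at a fold of 1.1 and 0 at 1.5. Of members higher past it (0), there was 1 after thinning and 1 at a fold of 1.1. In HSC-like cells the lower count (11) was 3 with classes by marker UMIs, 30 at a fold of 1.1 and 1 at 1.5. The cause of these moves was not tested. Of the 23 named members, 20 moved outside the counting interval of their main value with equal cell numbers, 12 with thinning and 10 as plain CPM. The counting error of the alternative value, larger with fewer UMIs, was not included. Psma3, Psma8 and Psmd7 had the other sign with equal cell numbers, and Psma8 with thinning too. Leaving out cluster 9, chosen after seeing the data, gave a summed log2 ratio of -0.12. With 15 control UMIs for Psma8 in HSC-like cells, depth limits that fold.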

Other observations

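The clusters left without a name gave further proteasome values. In cluster 0, whose best-matching marker list was that of neutrophil progenitors, the log2 ratio of the summed share was -0.15 between the B-ALL environment and the control, over 413 and 363 cells. In cluster 12 it was -0.23, over 244 and 376 cells. In cluster 9 it was 0.63, over 137 and 81 cells whose median depth was 4347 UMIs for controls and 10323 for B-ALL hosts. The proteasome share in that cluster's control cells, a median of 0.424% per cell, was the lowest median of any cluster or class in either group.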
